A study of Homo sapiens with 8 samples.

Results

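The genes described here are those of the G1 restriction point: the D-type cyclins CCND1, CCND2 and CCND3, their kinases CDK4 and CDK6, the inhibitors CDKN1A, CDKN1B, CDKN2B and CDKN2C, and the retinoblastoma gene RB1. Members were all probe sets that the platform annotation pairs with a single one of these 10 symbols. Of 18132 genes with at least 1 such probe set on the array, 9 were members, with 27 probe sets. CDKN2C had no probe set under the rule and was not analysed here.

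Hep3B (Hep3b in the labels) and Huh7.5.1 are established human hepatocellular carcinoma lines. Huh7.5.1 cells were exposed for 48 h to 10 μM CU27, a compound known here only by its code name, or to the solvent DMSO, and Hep3B cells to DMSO. Each of the 3 groups (Huh7.5.1 CU27, Huh7.5.1 DMSO and Hep3B DMSO) had 2 arrays, which the labels call biological replicates, numbered 1 and 2 in Huh7.5.1 and 2 and 3 in Hep3B. The 2 deposited columns for CU27 in Hep3B could be computed from the DMSO columns of that line by a linear formula (all 49395 probe sets, tolerance 1e-05). They held no measurement of their own and were left out of the main fits. All cells were grown in DMEM or MEM with fetal serum. Each line is a single line, so a difference between them is that of this pair.

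In G1, mitogens raise the D-type cyclins, which bind and activate CDK4 and CDK6. The active kinases phosphorylate the RB1 protein, which then releases E2F transcription factors and lets the cell enter S phase. Inhibitors of the INK4 family, such as CDKN2B (p15) and CDKN2C (p18), bind CDK4 and CDK6 alone, whereas CDKN1A (p21) and CDKN1B (p27) of the CIP/KIP family bind complexes of cyclin and kinase. Hepatocytes in adult liver are mostly quiescent, and CCND1 is a known driver of their entry into the cycle during regeneration. Hep3B is known as a line without RB1 protein and without p53.

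The arrays of each group correlated at 0.991 (Huh7.5.1 CU27), 0.993 (Huh7.5.1 DMSO) and 0.994 (Hep3B DMSO) over probe sets. All 9 measured hepatocyte markers lay at or above the floor in each group, where the floor was log2 6.11, the 50th percentile of all values, and 0 of 5 leukocyte markers did so in either Huh7.5.1 group and 1 of 5 in Hep3B DMSO. The summed linear signal of the hepatocyte markers was 60094 to 76613 in Huh7.5.1 CU27, 88642 to 92416 in Huh7.5.1 DMSO and 72226 to 77498 in Hep3B DMSO. Of 5 endothelial markers, 1 reached the floor in Huh7.5.1 DMSO and 0 in the other groups, and of 6 stellate or fibroblast markers 1 did so in each group. Of the cholangiocyte markers, 1 of 4 did so in each Huh7.5.1 group and 2 of 4 in Hep3B DMSO, where KRT19 was at 11.53 and 11.79, against 4.95 and 5.28 in Huh7.5.1 DMSO. The part of these marker differences in the results was not tested. RNA integrity was read from ACTB controls, as the log2 signal at the 3′ end minus that at the 5′ end. This value was 0.98 to 1.21 for Huh7.5.1 CU27, 0.94 to 1.06 for Huh7.5.1 DMSO and 1.60 to 2.28 for Hep3B DMSO. It moved with the cell line, and its part in the line differences was not tested. In bulk RNA, fewer cells with a transcript and less of it per cell cannot be told apart.

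Promoter sequences are shown for CDK4, the member that changed with CU27, and for CDKN1A and CDKN2B, the inhibitors among the members that differed most between the lines. They are RefSeq windows (GRCh38.p14) of the 250 bases before the transcription start, 5′ to 3′ on the strand of the gene. The CDK4 window is chr12:57752311-57752560 on the minus strand, the CDKN1A window chr6:36678464-36678713 on the plus strand, and the CDKN2B window chr9:22009306-22009555 on the minus strand. Capitals mark the E-box CACGTG in CDK4, a letter string that MYC and MAX can bind, and the GC box GGGCGG on either strand in the inhibitors, a string that SP1 can bind.
CDK4: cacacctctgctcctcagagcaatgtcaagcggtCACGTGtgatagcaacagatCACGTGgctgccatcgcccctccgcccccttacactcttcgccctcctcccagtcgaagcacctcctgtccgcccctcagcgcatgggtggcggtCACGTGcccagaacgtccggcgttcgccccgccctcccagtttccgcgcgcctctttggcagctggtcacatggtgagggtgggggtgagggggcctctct
CDKN1A: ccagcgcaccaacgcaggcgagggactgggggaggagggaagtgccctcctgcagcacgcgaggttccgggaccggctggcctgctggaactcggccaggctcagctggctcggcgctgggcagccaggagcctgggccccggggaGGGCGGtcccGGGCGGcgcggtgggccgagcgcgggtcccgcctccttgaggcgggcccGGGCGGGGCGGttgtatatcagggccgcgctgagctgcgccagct
CDKN2B: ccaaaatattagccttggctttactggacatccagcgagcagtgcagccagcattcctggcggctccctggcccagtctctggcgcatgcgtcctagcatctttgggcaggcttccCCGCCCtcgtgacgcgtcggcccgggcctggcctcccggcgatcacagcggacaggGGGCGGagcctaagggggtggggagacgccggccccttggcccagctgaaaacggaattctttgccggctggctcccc
The CDK4 window held 3 E-boxes, CDKN1A 4 GC boxes, of which the last pair overlap by a base, and CDKN2B 2 GC boxes. GC boxes were not particular to these inhibitors. The CDK4 window also held 3, left in lower case, and a CDK6 window held 3. Windows of CCND3 and of CDKN2C held up to 5, that of CDKN1B held 1 and that of RB1 held 0. Over 35116 RefSeq windows of the same length, 6.34% held at least 1 E-box and 0.0797% held 3 or more, and 42.6% held at least 1 GC box and 13.9% held 3 or more. Both strands were searched. No E-box was found in the windows of CCND3, CDK6, CDKN1A, CDKN1B, CDKN2B or RB1, whereas 2 of the 3 windows of CDKN2C, which was not measured, held 1 each. The E2F strings TTTCGCGC and TTTGGCGC (in 0.968% of all windows) and the AP-1 string TGACTCA (in 4.2%) were found in none of the windows of the members with an entry. These are matches of letters, and binding was not measured.

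**Figure D1:**
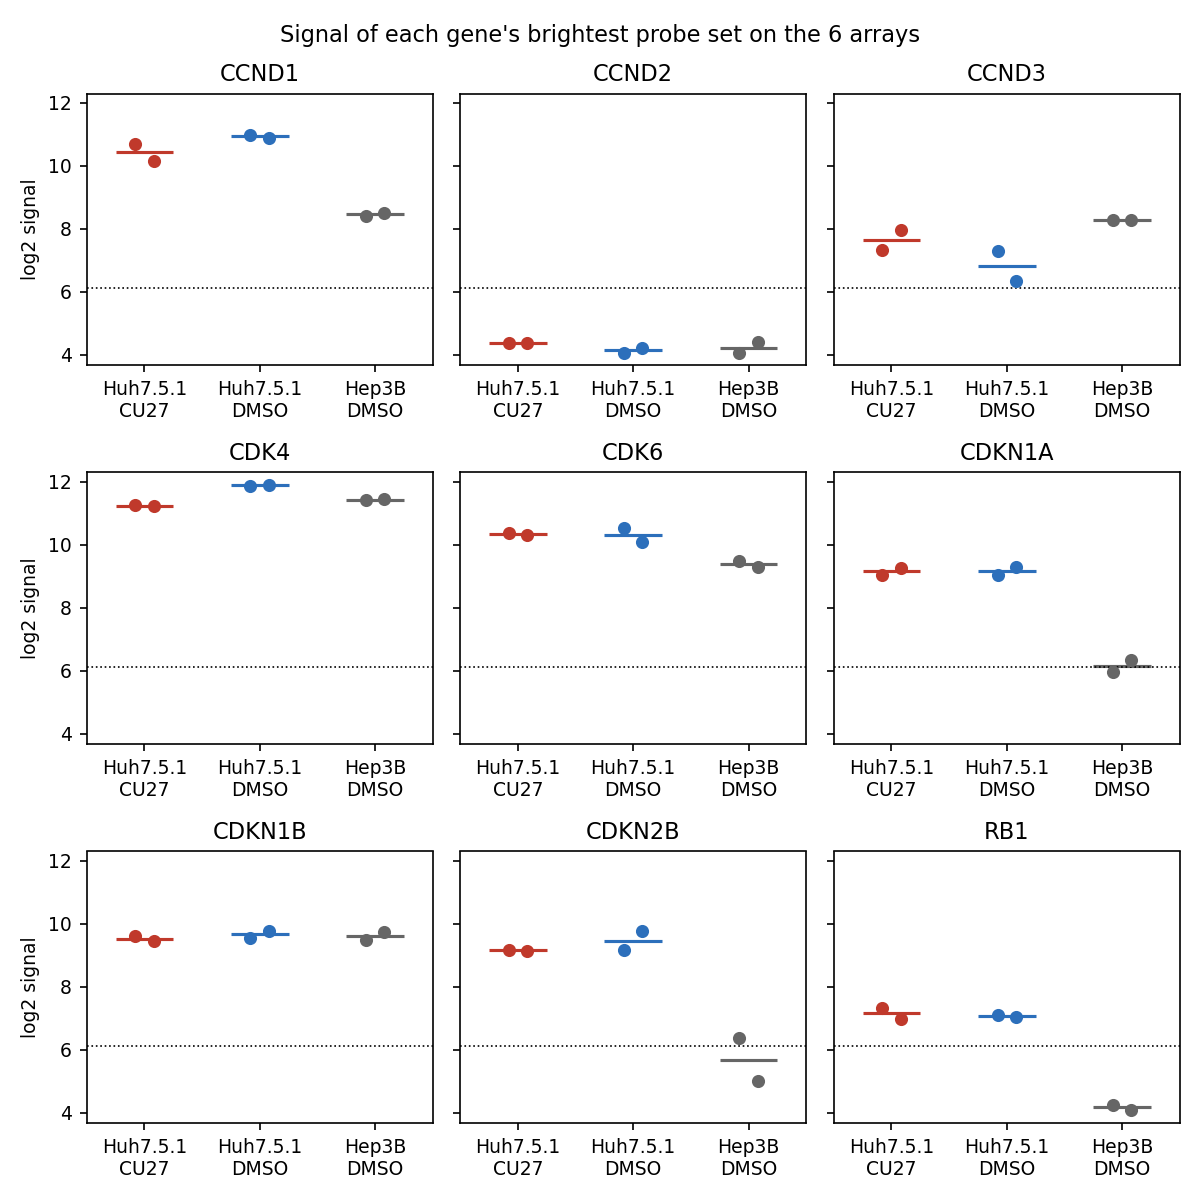
Log2 signal (vertical axis) of the brightest probe set of each of the 9 measured genes on the 6 arrays, with a point per array, a bar at the mean of each group of 2, and a dotted line at the floor of log2 6.11. CDK4 is lower with CU27 in both arrays, and CCND1, CDKN1A, CDKN2B and RB1 are lower in Hep3B DMSO than in Huh7.5.1.

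The first comparison asked whether CU27 altered the transcripts of the G1 machinery in Huh7.5.1. CDK4 fell, and no other member passed the test, although CCND1 values were lower and CCND3 values higher in both CU27 arrays. Each gene was represented by its brightest probe set and was tested when the mean of at least 1 group reached the floor, which 8 of the 9 members did. Of these, 1 fell and 0 rose (limma, Benjamini-Hochberg adjusted over 11383 genes, threshold 0.05), against 12.1% of all tested genes that fell, 12.6% that rose and 24.7% called in either direction. The median change of the tested members was -0.07 log2 units, against 0.02 over all tested genes. The CU27 and DMSO arrays did not overlap for 3 of the 8 members, CCND1, CCND3 and CDK4, against 63.8% of all tested genes. The count of calls in either direction and that of separated groups were below these backgrounds. The share that fell was close to its background. With only 8 tested members, these counts are descriptions. The number of members changed was 2 without DMSO replicate 1 and 3 without CU27 replicate 1.

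CDK4, the catalytic partner of the D-type cyclins, had a log2 signal of 11.25 and 11.22 in Huh7.5.1 CU27, against 11.88 and 11.90 in Huh7.5.1 DMSO. Both CU27 arrays lay below both DMSO arrays, and the arrays within a group differed by at most 0.03. In log2 units it fell by 0.65 ± 0.09 (SE, with 2 arrays in each group), or 1.57-fold, with a limma adjusted p of 0.00201 and a 95% interval of -0.86 to -0.45. The gene had 4 probe sets, and in a fit over all 27836 tested probe sets each of the 4 fell, between -0.65 and -0.59. Those were the only 4 of the 22 tested member probe sets called with CU27, against 11.3% of all tested probe sets that fell, 10.4% that rose and 21.7% called in either direction, and they share 1 target. The CU27 and DMSO arrays did not overlap at 11 of the 22, against 63.1% of all tested probe sets. Of the other CDK4 probe sets, 11722561_a_at was at 11.01 and 11.01 with CU27, against 11.67 and 11.53 with DMSO. At 11722562_s_at the values were 10.26 and 10.16 with CU27, against 10.84 and 10.75 with DMSO. At 11750512_x_at they were 11.04 and 11.10 with CU27, against 11.73 and 11.66 with DMSO. The groups were separate at all 4 probe sets of CDK4. The call of 11722562_s_at was lost without DMSO replicate 1 (-0.54, limma adjusted p = 0.0567) and without DMSO replicate 2 (-0.63, adjusted p = 0.0533), whereas that of the brightest probe set was kept in all 15 alternatives over probe sets (adjusted p from 0.00198 to 0.0318). The call of the gene CDK4 was kept in all 17 alternatives over genes (adjusted p from 0.00137 to 0.0255).

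MYC, a growth-driving factor that can activate CDK4 through E-boxes, is named here for the motif above and after its values were seen. It had a log2 signal of 10.16 and 10.31 in Huh7.5.1 CU27 and of 10.71 and 10.90 in Huh7.5.1 DMSO. It fell by 0.56 ± 0.13 (SE from 2 arrays in each group, limma adjusted p = 0.0138), and without DMSO replicate 2 its change was -0.47 with an adjusted p of 0.116. Between the lines in DMSO, the difference of Huh7.5.1 minus Hep3B was -0.31 for MYC (limma adjusted p = 0.0570), whereas it was 0.45 for CDK4. Whether the levels of MYC and CDK4 are linked was not tested.

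CDK6, the kinase that shares the D-type cyclins with CDK4, did not pass the test. Its brightest probe set was at 10.39 and 10.30 with CU27, against 10.55 and 10.09 with DMSO, so that the CU27 arrays lay between the DMSO arrays. The change was 0.02 ± 0.17 (limma adjusted p = 0.938), with a 95% interval of -0.35 to 0.40. Over its 4 probe sets the values lay between -0.14 and 0.02. Without DMSO replicate 2 the value was -0.21 and without CU27 replicate 1 it was -0.02. Whether the change of CDK4 differed from that of CDK6 was not tested.

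Among the cyclins, CCND1, the D-type cyclin best known in liver growth, had a log2 signal of 10.71 and 10.17 in Huh7.5.1 CU27, against 10.98 and 10.89 in Huh7.5.1 DMSO. Both CU27 arrays lay below both DMSO arrays, but the CU27 arrays differed from each other by 0.54. The change was -0.50 ± 0.18 (SE, 2 arrays in each group), with a limma adjusted p of 0.0684 and a 95% interval of -0.90 to -0.10. Its 4 probe sets had values from -0.60 to -0.33, and none passed the test. Without CU27 replicate 1 the change was -0.77 (adjusted p = 0.00853), and without CU27 replicate 2 it was -0.23 (adjusted p = 0.309), so the size rested on which CU27 array was kept.

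CCND3, a D-type cyclin best known in lymphoid cells, had a log2 signal of 7.32 and 7.96 in Huh7.5.1 CU27, against 7.29 and 6.33 in Huh7.5.1 DMSO. The arrays did not overlap, but CU27 replicate 1 and DMSO replicate 1 were nearly equal. The change was 0.83 ± 0.31 (SE, 2 arrays in each group), with a limma adjusted p of 0.0802 and a 95% interval of 0.13 to 1.52. Without DMSO replicate 1 it was 1.30 (adjusted p = 0.0202) and without CU27 replicate 1 it was 1.15 (adjusted p = 0.0466), whereas without DMSO replicate 2 it was 0.35 (adjusted p = 0.475) and without CU27 replicate 2 it was 0.51 (adjusted p = 0.382). The other CCND3 probe set, 11762304_a_at, lay below the floor on every array. CCND2, the remaining D-type cyclin, lay below the floor at all 3 of its probe sets, between 3.52 and 4.37 in Huh7.5.1 CU27, between 3.50 and 4.23 in Huh7.5.1 DMSO and between 3.05 and 4.39 in Hep3B DMSO. It was therefore not tested, and its measured values give no order of the groups.

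The inhibitors and RB1 did not pass the test with CU27. CDKN1A, a CIP/KIP inhibitor that p53 is known to induce, had a log2 signal of 9.06 and 9.25 in Huh7.5.1 CU27 and of 9.04 and 9.30 in Huh7.5.1 DMSO, with a change of -0.01 ± 0.18 (limma adjusted p = 0.970, 95% interval -0.42 to 0.40). CDKN1B, its relative that restrains CDK2 in resting cells, was at 9.60 and 9.46 with CU27 and at 9.55 and 9.77 with DMSO, with a change of -0.13 ± 0.15 (adjusted p = 0.574, 95% interval -0.46 to 0.20). The groups overlapped for both genes, and the second probe sets gave values of -0.02 for CDKN1A and -0.12 for CDKN1B.

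CDKN2B, an INK4 inhibitor that TGF-beta is known to induce, was at 9.18 and 9.13 with CU27 and at 9.16 and 9.77 with DMSO. Its change was -0.31 ± 0.38 (limma adjusted p = 0.606), with a 95% interval of -1.17 to 0.55, and the groups overlapped. It was -0.61 without DMSO replicate 1 and -0.0076 without DMSO replicate 2. At probe set 11726508_a_at the CU27 arrays, 8.47 and 8.14, lay below the DMSO arrays, 8.997 and 9.45, with a change of -0.92 ± 0.38 (adjusted p over probe sets 0.122). The SE there was set in part by the spread of the Hep3B arrays, and with only the 4 Huh7.5.1 arrays the adjusted p was 0.0344, and without a single Hep3B replicate it was 0.0354. The third probe set was at 6.20 and 5.97 with CU27 and at 6.23 and 6.31 with DMSO, a change of -0.19. The 3 probe sets thus had the same sign and unequal size, but the third lay at the floor, with a CU27 mean of 6.09.

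RB1 was at 7.32 and 6.99 with CU27, against 7.12 and 7.05 with DMSO, by its brightest probe set. The change was 0.07 ± 0.18 (limma adjusted p = 0.815), with a 95% interval of -0.33 to 0.47. It was -0.09 without CU27 replicate 1 and 0.24 without CU27 replicate 2. At 11717702_a_at the CU27 arrays, 7.87 and 7.67, lay above the DMSO arrays, 7.52 and 7.53, with a change of 0.25 ± 0.19 (adjusted p over probe sets 0.399). No RB1 probe set was called.

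**Figure D2:**
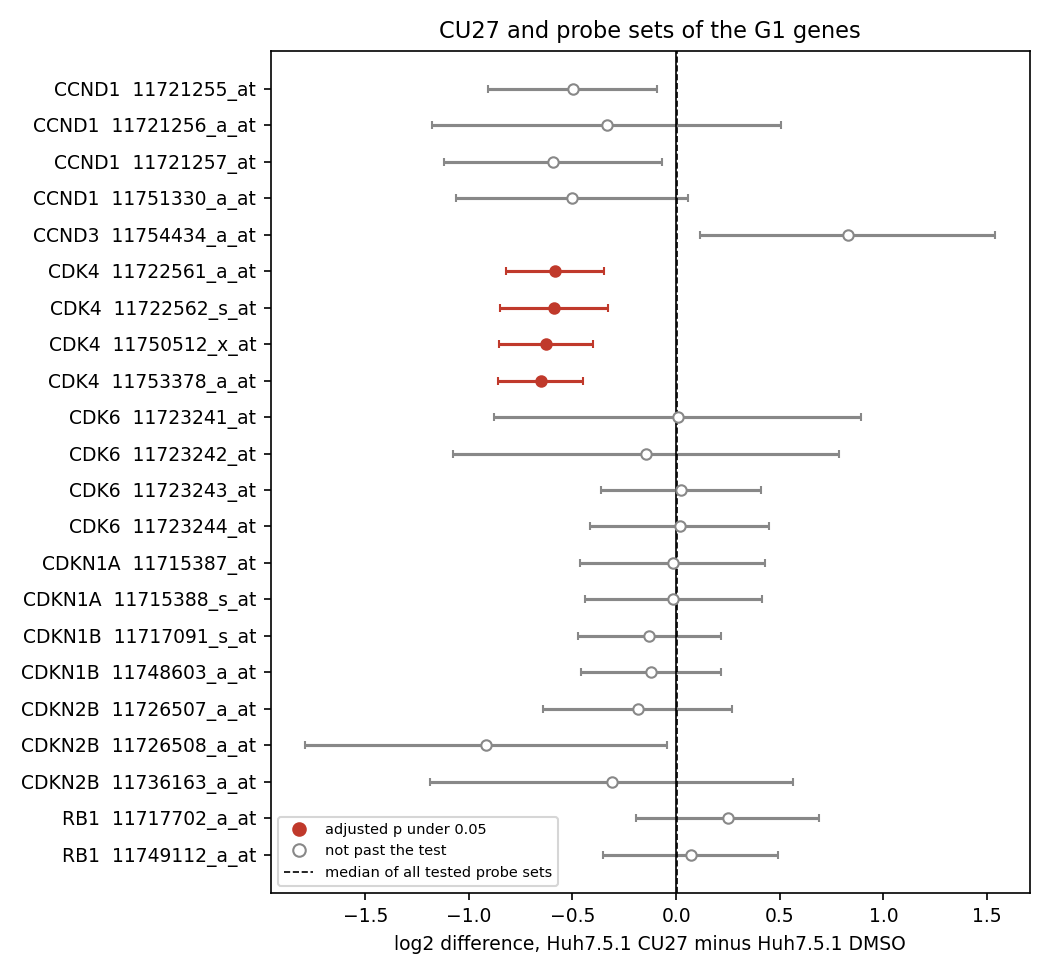
Log2 difference between Huh7.5.1 CU27 and Huh7.5.1 DMSO (horizontal axis) for the 22 tested probe sets (rows), with bars for the 95% interval from limma and a dashed line at the median of all tested probe sets. The 4 CDK4 probe sets, in red, lie between -0.65 and -0.59 with narrow intervals, and the 18 others did not pass the test.

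The second comparison set the lines against each other in DMSO. CCND1, CDK6, CDKN1A, CDKN2B and RB1 were higher in Huh7.5.1 than in Hep3B, CCND3 was lower, CDK4 was slightly higher on the deposited scale and CDKN1B did not pass the test. Of the 8 tested members, 6 were called higher and 1 lower (limma, adjusted over 11383 genes), against 41% and 22.9% of all tested genes and 64% in either direction. The arrays of the lines did not overlap for 7 of 8, against 84.8% of all tested genes. RB1 and CDKN2B reached the floor only through Huh7.5.1 and so had to differ, and the counts and the median of the members are given as descriptions. The median difference over all tested genes was 0.22 log2 units, against 1.70 over the tested members, and differences relative to this general shift are given beside the values measured above the floor in both lines. Where a Hep3B mean lay below the floor, only a bound on the fold is given. The general shift depends on the scaling, since the median over tested genes was -0.22 with columns centred on their medians and -0.10 with quantile normalization, and genes higher in Huh7.5.1 made up 64.1% of calls as deposited, 36.2% with centring and 43.8% with quantile normalization. The directions of CCND1, CCND3, CDK6 and CDKN1A were the same under all 3 scalings at the brightest probe set. CDK4 kept its sign, but with centring its difference was only 0.04 (limma adjusted p = 0.760). CDKN2B and RB1 also kept theirs, which follows from being tested only through Huh7.5.1.

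RB1, the gatekeeper that the kinases phosphorylate, had a log2 signal of 7.12 and 7.05 in Huh7.5.1 DMSO, against 4.26 and 4.09 in Hep3B DMSO. At probe set 11717702_a_at it was at 7.52 and 7.53 in Huh7.5.1 DMSO, against 3.14 and 2.75 in Hep3B DMSO, and 11753684_a_at was at 5.57 and 5.04 in Huh7.5.1 DMSO, against 2.97 and 3.00 in Hep3B DMSO. All 3 probe sets lay below the floor on both Hep3B arrays, and the last lay below it in Huh7.5.1 too, was not tested and gives no order of the lines. By its brightest probe set RB1 was at least 1.97-fold higher in Huh7.5.1, and at 11717702_a_at at least 2.67-fold. Its limma adjusted p of 2.0e-06 belongs to a gene that was tested only through Huh7.5.1 and supports nothing on its own. With 1 Hep3B array left out, 11717702_a_at became the brightest probe set.

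Of the inhibitors, CDKN2B had the largest measured difference of group means, which rests in part on Hep3B signal below the floor. CDKN2B was at 9.16 and 9.77 in Huh7.5.1 DMSO, against 6.37 and 5.01 in Hep3B DMSO. The Hep3B arrays thus differed from each other by 1.35. A gap of 1.36 appeared at 11726508_a_at (8.997 and 9.45 in Huh7.5.1 DMSO, against 6.34 and 4.98 in Hep3B DMSO), whereas the SD of the difference between those 2 arrays over all tested probe sets was 0.27. By the group means the gene was at least 10.3-fold higher in Huh7.5.1. Hep3B replicate 2 lay above the floor, so the bound does not hold for that array. The limma adjusted p of CDKN2B, 3.7e-05, likewise belongs to a gene tested only through Huh7.5.1. The measured difference, which is no bound, was 4.45 without Hep3B replicate 2 and 3.10 without Hep3B replicate 3. At 11726508_a_at CDKN2B was at least 8.66-fold higher by the group means, but Hep3B replicate 2 again lay above the floor. The difference there was 2.88 without Hep3B replicate 3. At the third probe set, 11726507_a_at, the gene was at least 1.12-fold higher.

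CDKN1A was at 9.04 and 9.30 in Huh7.5.1 DMSO, against 5.97 and 6.36 in Hep3B DMSO, with the Hep3B mean just above the floor. Its difference was 3.00 ± 0.18 (limma adjusted p = 1.9e-06), or 8.02-fold higher, and 2.78 relative to the shift. The other probe set, 11715387_at, was at 7.76 and 7.94 in Huh7.5.1 DMSO, against 6.43 and 6.59 in Hep3B DMSO, a smaller difference of 1.34 ± 0.20. Both had the same direction and separate groups, while the size depended on the probe set. CDKN1B was at 9.55 and 9.77 in Huh7.5.1 DMSO, against 9.50 and 9.73 in Hep3B DMSO, with a difference of 0.05 ± 0.15 (adjusted p = 0.790) and a 95% interval of -0.28 to 0.38. Relative to the shift its value was -0.18, and under the 16 alternatives it lay between -0.37, with centring, and 0.16 and was called in 0 of them.

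Among the cyclins, CCND1 was at 10.98 and 10.89 in Huh7.5.1 DMSO, against 8.42 and 8.50 in Hep3B DMSO, a separation far wider than that between arrays of a line. It was 5.56-fold higher in Huh7.5.1, with a difference of 2.48 ± 0.18 (limma adjusted p = 4.9e-06) and of 2.25 relative to the shift. At 11721256_a_at the difference was 2.13, and at 11721257_at and 11751330_a_at, with Hep3B means below the floor, CCND1 was at least 4.70-fold and at least 4.48-fold higher. At 11721257_at Hep3B replicate 3, at 6.14, lay just above the floor, so that bound holds for the group mean only. CCND3 had the opposite direction, at 7.29 and 6.33 in Huh7.5.1 DMSO, against 8.27 and 8.28 in Hep3B DMSO. It was lower in Huh7.5.1, with a difference of -1.46 ± 0.31 (adjusted p = 0.00271), or -1.69 relative to the shift. The 2 Huh7.5.1 arrays differed from each other by 0.95, and CCND3 was at -1.94 without DMSO replicate 1 and at -0.99 without DMSO replicate 2 of Huh7.5.1.

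The kinases differed less. CDK6 was at 10.55 and 10.09 in Huh7.5.1 DMSO, against 9.48 and 9.31 in Hep3B DMSO, with a difference of 0.93 ± 0.17 (limma adjusted p = 0.00113) and of 0.70 relative to the shift. All 4 of its probe sets were called, at 0.93, 1.01 and 1.03 for those above the floor in both lines, while 11723242_at, with both Hep3B arrays below the floor, was at least 1.95-fold higher. The call of 11723241_at (1.01, adjusted p over probe sets 0.0478) was lost in 8 alternatives, among them without Huh7.5.1 DMSO replicate 1, where the difference was 0.40 (adjusted p = 0.337), and without Hep3B replicate 2 (0.97, adjusted p = 0.175) or replicate 3 (1.04, adjusted p = 0.150).

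CDK4 was at 11.88 and 11.90 in Huh7.5.1 DMSO, against 11.42 and 11.46 in Hep3B DMSO, a difference of 0.45 ± 0.09 (limma adjusted p = 0.00195) and of 0.23 relative to the shift. With columns centred on their medians it was 0.04 with an adjusted p of 0.760, so the call was lost there. Its probe sets disagreed in size, with 0.88 ± 0.10 at 11722561_a_at, 0.85 ± 0.10 at 11750512_x_at and 0.12 ± 0.11 at 11722562_s_at, of which the last was not called and turned to -0.30 (adjusted p = 0.0485) with centring and to -0.05 (adjusted p = 0.720) with quantile normalization. With CU27, CDK4 in Huh7.5.1 lay below the Hep3B DMSO arrays at 11753378_a_at and 11722562_s_at and above them at 11722561_a_at and 11750512_x_at. The place of the CU27-treated cells relative to Hep3B thus depended on the probe set, and this pair of groups was not tested.

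**Figure D3:**
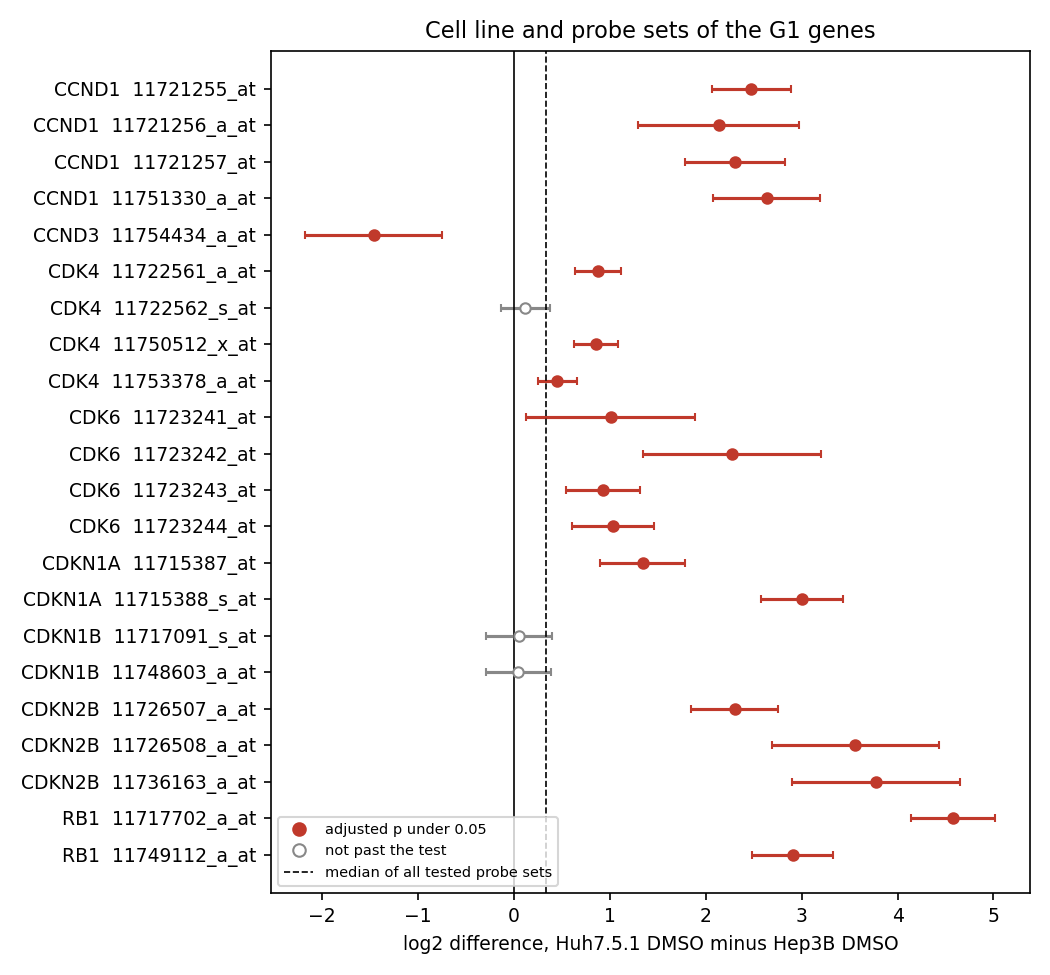
Log2 difference between Huh7.5.1 DMSO and Hep3B DMSO (horizontal axis) for the 22 tested probe sets (rows), with bars for the 95% interval from limma and a dashed line at the median of all tested probe sets, 0.34. In all, 18 of the 22 were called higher in Huh7.5.1, against 44.8% of all tested probe sets, and 1, the CCND3 probe set, lower, against 19.4% (64.2% in either direction). Of the 18, 8 had a Hep3B mean below the floor and were tested only through Huh7.5.1, so their points are no bounds and the count is a description. The lines did not overlap at 20 of the 22, against 85.2%.

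The probe sets of a gene did not always vary alike between replicates. At 11723241_at and 11723242_at of CDK6, replicate 1 of Huh7.5.1 exceeded replicate 2 by 0.90 and 0.85 with CU27 and by 1.21 and 1.28 with DMSO. At 11723243_at and 11723244_at of the same gene the gaps were only 0.09 and 0.16 with CU27 and 0.46 and 0.47 with DMSO. CCND1 showed a like contrast, with gaps of 1.11 with CU27 and 0.87 with DMSO at 11721256_a_at, against 0.54 with CU27 and 0.09 with DMSO at its brightest probe set. Over all 27836 tested probe sets, replicate 1 exceeded replicate 2 by at least 0.8 under both treatments at 189, or 0.679%, and the reverse held at 7. The 3 member probe sets of this kind were those of CDK6 and CCND1 named above.

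**Figure D4:**
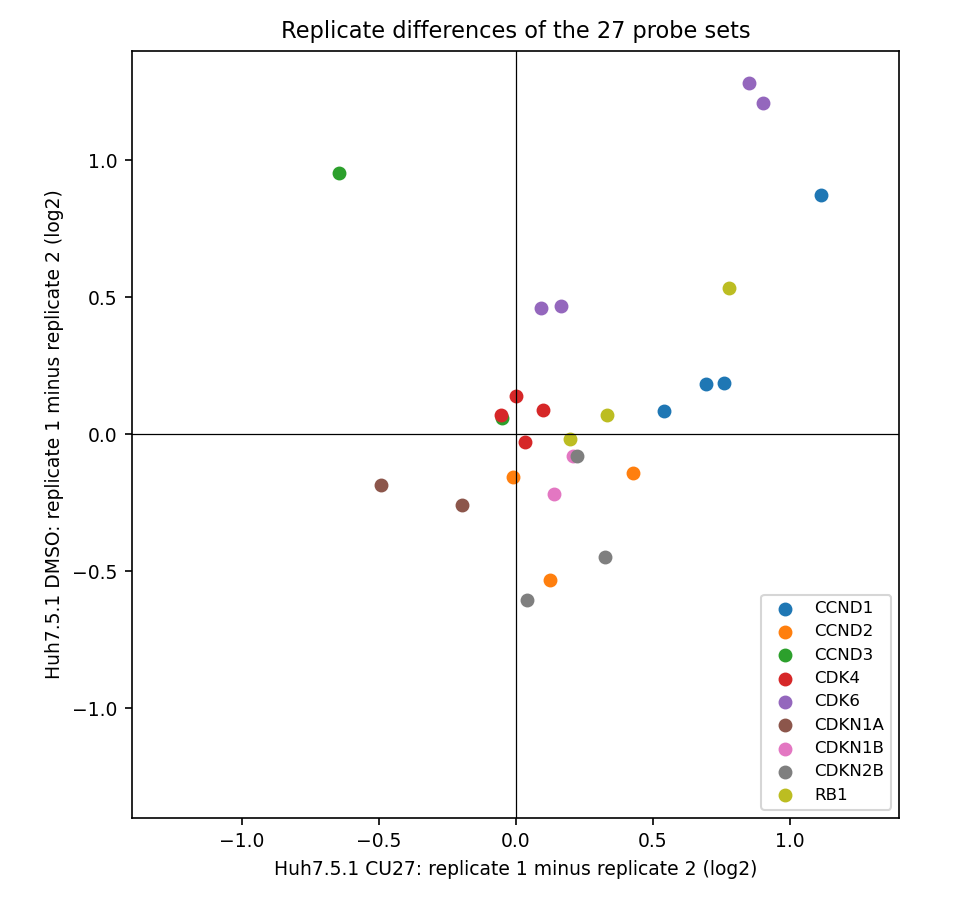
Log2 difference between replicate 1 and replicate 2 of Huh7.5.1 for the 27 probe sets, with CU27 on the horizontal axis and DMSO on the vertical axis, coloured by gene. In this plot 2 CDK6 probe sets and 1 CCND1 probe set stand at the upper right, above 0.8 on both axes, while the 4 CDK4 probe sets lie near 0 on both.

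Other genes of the pathway moved in both directions with CU27. Of 10 tested genes of cyclin E, cyclin A, CDK2 and their activators, 4 fell and 1 rose, against 12.1% and 12.6% of all tested genes. The phosphatase CDC25A, which activates CDK2, fell by 0.83 ± 0.14 (limma adjusted p = 0.00384) and CDK2 itself by 0.58 ± 0.14. CDK7, the kinase that activates CDKs, rose by 0.68 ± 0.14, while CCNH, a partner of CDK7, fell by 0.61 ± 0.14 (adjusted p = 0.0158). The call of CCNH was not followed over the alternatives. Of 4 other inhibitors, CDKN2D (p19, a further INK4 protein) rose by 1.30 ± 0.18 (adjusted p = 0.00201) and CDKN3, a phosphatase that acts on CDK2, fell by 0.71 ± 0.15. For CDKN1C (p57), a CIP/KIP relative, the value was 0.57 ± 0.19, which did not pass (adjusted p = 0.0548) but did so in 8 of 17 alternatives. Without DMSO replicate 2 the calls of CDK7 (adjusted p = 0.0648), CDK2 (0.0821) and CDKN3 (0.103) were lost, and CDK2 also lost its call without DMSO replicate 1 (0.0879) or without CU27 replicate 2 (0.0531).

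Downstream, 2 of 12 pocket protein, E2F and DP genes fell and 1 rose. E2F5, a repressor-type E2F, fell by 1.36 ± 0.15 (limma adjusted p = 0.000794), E2F8, an atypical repressor, fell by 0.76 ± 0.20, and the activator E2F1 rose by 0.81 ± 0.16. Of 7 subunits of the MuvB and DREAM complexes, which repress or activate cell cycle genes, LIN37 rose by 0.95 ± 0.19 and LIN9 fell by 0.62 ± 0.20. Of 19 E2F targets of G1/S, 5 fell and 0 rose, against 12.1% and 12.6% of all tested genes, among them the licensing factor CDC6 at -0.69 ± 0.12, the polymerase subunit POLA1 at -0.83 ± 0.18 and the ribonucleotide reductase subunit RRM2 at -0.63 ± 0.16. The list medians were -0.24, -0.26 and -0.13, against 0.02 over all tested genes. Calls lost without DMSO replicate 2 were those of E2F1 (adjusted p = 0.0821), E2F8 (0.173), LIN37 (0.0549), LIN9 (0.233), POLA1 (0.0763) and RRM2 (0.133). Without DMSO replicate 1 those of E2F8 (0.0575), LIN9 (0.113), POLA1 (0.0509) and RRM2 (0.0557) were lost, and without CU27 replicate 2 those of E2F8 (0.136), LIN9 (0.107), POLA1 (0.0599) and RRM2 (0.0997). The call of LIN9 was also lost without CU27 replicate 1 (0.142), with all 8 columns (0.0846), with no floor (0.0677), without a trend (0.0540) and with a robust prior (0.0515). Without probe sets that can bind several transcripts (_x_at and _s_at), LIN9 (0.0548) and E2F8 (0.0865) lost their calls and RRM2 was at -0.14 (adjusted p = 0.689), while with the mean of all probe sets RRM2 was at -0.39 (adjusted p = 0.121).

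Among 17 genes whose products act on the stability or assembly of D cyclins, p27 and p21, 2 fell and 1 rose. FBXO4, an F-box protein linked to cyclin D1 turnover, fell by 1.83 ± 0.21 (limma adjusted p = 0.00108), SKP2, the F-box protein that targets p27, fell by 0.96 ± 0.29, and the scaffold CUL4B rose by 0.46 ± 0.14. CUL4B lost its call without any 1 of the 6 arrays (adjusted p from 0.0533 to 0.163). SKP2 lost it without DMSO replicate 1 (adjusted p = 0.117) or 2 (0.161), without Hep3B replicate 2 (0.0639) or 3 (0.0632), and without CU27 replicate 2 (0.174), where its value was -0.48. Its call was also lost with only the 4 Huh7.5.1 arrays (0.0616), without a trend (0.0537), with the mean of all probe sets (-0.68, adjusted p = 0.119) and with all 8 columns (-0.41, adjusted p = 0.396), and that of CUL4B with only the 4 Huh7.5.1 arrays (0.0527) and with no floor (0.0571). Of 24 tested factors known to regulate the members, 5 rose and 2 fell, with SMAD3, which carries TGF-beta signals, at 1.00 ± 0.13, STAT3 at 0.81 ± 0.14 and CEBPA, a hepatocyte factor that restrains proliferation, at -1.21 ± 0.11. Of 10 proliferation genes, 4 fell and 0 rose, against 12.1% and 12.6% of all tested genes, among them the cyclins CCNB1 at -1.22 ± 0.15 and CCNB2 at -1.08 ± 0.12 and the kinase AURKA at -0.97 ± 0.12, with a list median of -0.59. Over the 17 alternatives the number of called genes ran from 1 to 5 in the CDK2 list, 1 to 3 among the other inhibitors, 1 to 4 among the E2F factors, 0 to 3 among MuvB and DREAM subunits, 1 to 5 among ligases and kinases, 1 to 6 among E2F targets, 3 to 8 among the regulators and 4 to 6 among the proliferation genes.

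**Figure D5:**
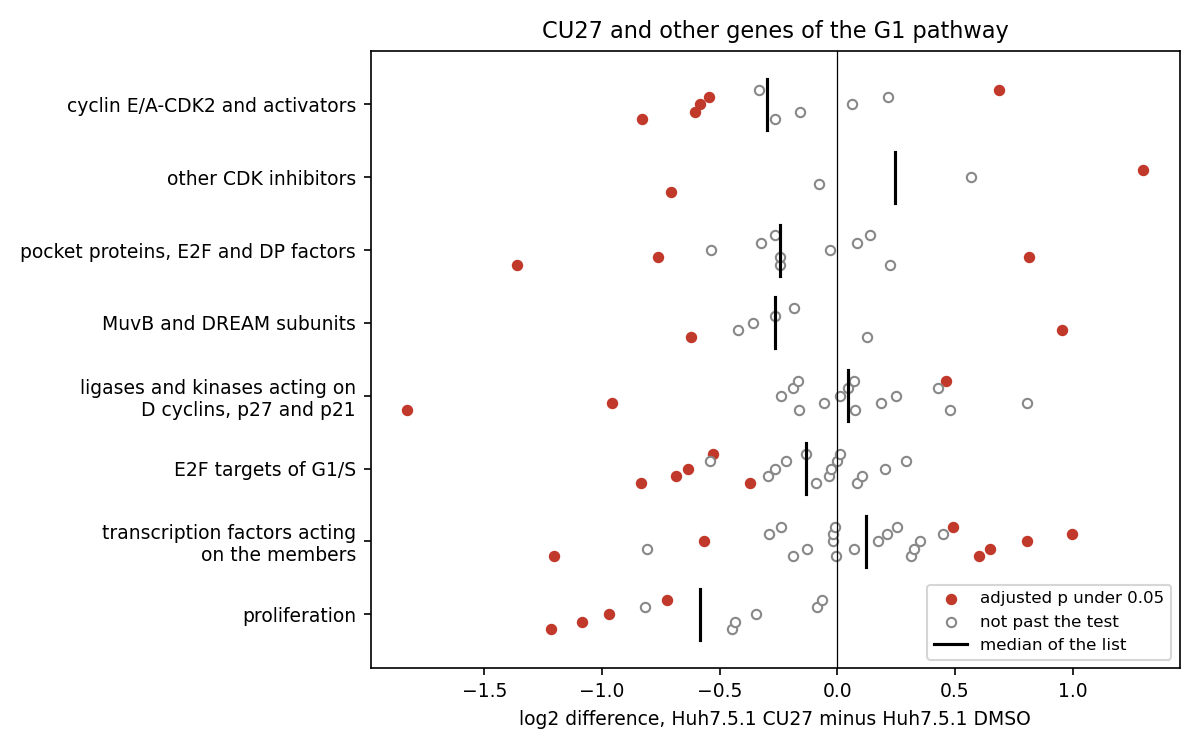
Log2 difference between Huh7.5.1 CU27 and Huh7.5.1 DMSO (horizontal axis) for the tested genes of the 8 lists (rows), with a point per gene, red where past the test, and a black bar at the median of each list. The proliferation list has its median at -0.59, and it and the E2F targets have 0 genes that rose, while the other 6 lists have red points on both sides of 0.

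Between the lines, 13 of 24 regulators of the members were higher in Huh7.5.1 and 2 lower, and 3 of 19 E2F targets were higher and 8 lower, against 41% and 22.9% of all tested genes. The CDK2, E2F and ligase lists each had 4 higher and 4 lower, MuvB and DREAM subunits 2 and 2, proliferation genes 2 and 3, and the other inhibitors 0 and 2. CDKN1C was lower in Huh7.5.1, with a difference of -3.05 ± 0.19 (limma adjusted p = 2.1e-06), with means of 8.58 in Huh7.5.1 DMSO and 11.63 in Hep3B DMSO. CDKN2A, which neighbours CDKN2B in the genome and encodes p16 and ARF, was lower at its brightest probe set, with a difference of -1.22 ± 0.10, but with the mean of all its probe sets the difference was 0.11 (adjusted p = 0.529). KLF4, a factor known to activate CDKN1A, was at least 14.4-fold higher in Huh7.5.1, with a Hep3B mean below the floor, and JUN, an AP-1 subunit that can activate CCND1, was higher by 1.77 ± 0.12. Genes lower in Huh7.5.1 were TFDP1, the partner of E2F proteins, with a difference of -1.87 ± 0.17, E2F7, with -1.25 ± 0.15, and the S-phase cyclin CCNA2, with -1.23 ± 0.14, while CCNH, a partner of CDK7, was higher by 1.63 ± 0.14. These values are on the deposited scale, from which 0.22 is to be taken for a value relative to the general shift.

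The tested genes most like the members with the widest spread were found from the means of the 3 groups, centred for each gene, by Euclidean distance in log2 units. Nearest to CCND1 were SAT1 (0.0067) and AKR1B10 (0.026), to CDKN1A ATF3 (0.033) and ZNF441 (0.044), to RB1 ATF3 (0.044) and LRRC8C (0.050), and to CDKN2B HOXD4 (0.072) and KIAA0825 (0.099). Each distance rests on 3 means and was the smallest or second smallest among 11383 genes. The Hep3B means of RB1, CDKN2B, AKR1B10, ZNF441, LRRC8C, HOXD4 and KIAA0825 lay below the floor. Distances that involve these genes thus rest in part on signal below the floor and are descriptions only.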

How the data were processed

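Per the labels' protocols, biotin-labelled cRNA was made from total RNA with a kit that primes at the 3′ end, for Affymetrix arrays. The deposited table held log2 signals of 49395 probe sets in 8 columns, with log2 read from the range of the values. MAS5 is named without a version in the submitters' processing notes, and the scaling between arrays is unknown. The medians of the columns were 6.25 to 6.26 for Huh7.5.1 CU27, 6.23 to 6.27 for Huh7.5.1 DMSO and 5.82 to 5.85 for Hep3B DMSO. Controls (102 probe sets) were left out. Each of 18132 genes with a single symbol was represented by its brightest probe set over the 6 arrays.

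Comparisons used limma 3.58.1 under R 4.3.3 (lmFit, contrasts, eBayes with an intensity trend, 3 residual and 5.87 prior degrees of freedom), two-sided, with Benjamini-Hochberg adjustment over all 11383 genes or 27836 probe sets tested. The procedure was tested on simulated data with effects added only to the CU27 group. These data held no line difference and no scaling shift, so the comparison between lines was not covered. With 2 arrays a side, exact permutation p-values stop at 0.333, so none is given. A fold against a group whose mean lay under the floor is a bound for the group means, computed against the floor. It need not hold for a single array above the floor. Arrays carry no read depth, so their number limits the precision.

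The members, lists and rules were chosen with earlier results of these data known. All members were named, and of each list up to 3 genes with the smallest p for CU27 and up to 2 between lines, of which not all are printed. Levels of different genes were not compared.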

Additional observations from a re-analysis of the deposited data

How the results depend on the processing

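The number of members changed by CU27 was 1 under 14 of 17 alternatives. It ran from 1 to 3 when 1 array at a time was left out, and the number of member probe sets changed ran from 3 to 7, that of genes changed by CU27 in Huh7.5.1 from 887 to 2972 (1638 without Huh7.5.1 DMSO replicate 1, 887 without replicate 2 and 1522 without CU27 replicate 2), and that of genes differing between lines from 5885 to 7607. With the replicate block, the number of members changed was 2, since CCND1 was then called at -0.50 (limma adjusted p = 0.0313), as were its probe sets 11721255_at (0.0367) and 11721257_at (0.0407). The Huh7.5.1 groups share the replicate numbers 1 and 2, but the labels do not say that a number marks a shared culture or day, and over 11383 genes the differences between replicates 1 and 2 correlated at 0.179 across the 2 treatments. No paired analysis was possible between lines because they share only the number 2. Members differing between lines numbered 6 or 7 under all 16 alternatives. This count is a description, since it includes RB1 and CDKN2B, which in the main fit were tested only through Huh7.5.1. In that fit 64% of all tested genes differed between lines. Of results called in 1 of the settings, those that changed direction were CDKN2A between lines, at 0.11 with the mean of all probe sets, and the CDK4 probe set 11722562_s_at between lines, at -0.30 with columns centred on their medians; the cause was not tested. Values called in neither setting also changed sign, among them, with CU27, CDK6 (-0.21 without DMSO replicate 2), CDKN1A (0.12 without DMSO replicate 2), RB1 (-0.09 without CU27 replicate 1) and the CCND1 probe set 11721256_a_at (0.22 without CU27 replicate 2), and CDKN1B between lines (-0.37 with centring). With 2 arrays per group, changes within the intervals given for CDK6, CDKN1A, CDKN1B, CDKN2B and RB1 were not detectable.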
